A study of Homo sapiens with 3 samples.

Results

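The genes described here are 50 human snoRNA host genes that do not encode ribosomal proteins, 14 of them non-coding RNA genes and the rest protein-coding. Members were found as every entry of 3 deposited lists of A-to-G sites that carried 1 of the 50 names. In all, 37 of the 50 genes were listed, with 288 of the 16820 distinct positions in the lists (1.71%) and among 4245 gene names. Of the 50 genes, 47 contain a snoRNA or scaRNA in the RefSeq annotation. CHTOP, CACYBP and CLASP2 contain none in RefSeq or in GENCODE 29, so for these 3 the annotation does not bear out the name of the set.

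Small nucleolar RNAs (snoRNAs) guide ribose methylation and pseudouridylation of ribosomal RNA, and their relatives in Cajal bodies (scaRNAs) guide the same changes in spliceosomal RNA. Most human snoRNAs have no promoter of their own and are trimmed out of an intron of a host gene after that intron has been spliced. The spliced host RNA then has its own fate: many hosts encode proteins of translation, while the spliced RNA of GAS5 and of several SNHG genes is a known target of nonsense-mediated decay.

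The study used HyperTRIBE in THP-1 cells, an established line from a monocytic leukemia. In this assay a protein of interest carries the hyperactive catalytic domain of ADAR (ADARcd), which converts adenosine to inosine, so that RNA the protein comes close to acquires A-to-G differences in the reads. DDX41, the protein tested, is a helicase that is mutated in myeloid neoplasms and has been studied for a part in splicing and snoRNA processing. All cells were transduced with a pGK-GFP retrovirus made in 293T cells and were harvested for total RNA at day 7, and the virus held no transgene (the empty library), ADARcd alone or the DDX41-ADARcd fusion. Each of the 3 groups was 1 library, so every test below compares the reads of libraries and has no replicate behind it.

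The 3 lists set ADARcd alone against empty, DDX41-ADARcd against empty and DDX41-ADARcd against ADARcd alone, and thus share their libraries. The editing level of a position is the percent of its reads with the edited base. By their values, positions were listed where the first library had an edited read and where the control had 10 or more reads and none of them edited, so that a higher level in the first library is a condition of being listed and not a result. Positions outside a list carry no reads in the files used here. Median depth at member positions was 216 reads in ADARcd alone and 27.5 in empty for the first list, 166 in DDX41-ADARcd and 28 in empty for the second, and 94 in DDX41-ADARcd and 126 in ADARcd alone for the last. Exact Clopper-Pearson 95% intervals, and upper limits set at 3 reads of the depth where no edited read was seen, cover counting error only. As a check of the cell label, 8 of 12 myeloid marker genes, among them SPI1, CEBPA, LYZ and CSF1R, and 0 of 6 epithelial or kidney markers were listed. The myeloid markers CD33, CD14, MPO and ITGAM were not listed. Being listed depends on depth and on an edited read, so this check is weak.

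A few member positions stood out by their edited reads, and most of these are shown first because the comparisons below turn on them. Each sequence is the transcript strand of GENCODE 29 on GRCh38, written with T, with the edited A in capitals. The SNHG5 window crosses a splice junction, and the SCARNA21 window is short because the RNA ends there.
TPT1 at chr13:45340107, minus strand, coding exon 3 of 6: ggccccgagggcgaAggtaccgaaagcac
SNHG5 at chr6:85677808, minus strand, non-coding exon 3 of 5: tgtgactgactagcAgcttcattttgaat
LRRC75A-AS1 at chr17:16441673, plus strand, non-coding exon 4 of 4: aatcacccaggcctAagcaatcctcccac
LRRC75A-AS1 at chr17:16441667, plus strand, the same exon: atcctcaatcacccAggcctaagcaatcc
RACK1 at chr5:181238222, minus strand, coding exon 7 of 9: ggccaggccatgttAtgggatctcaacga
RACK1 at chr5:181241604, minus strand, coding exon 3 of 8: tgtgggccataccaAggatgtgctgagtg
SCARNA21, in an intron of CHD3, at chr17:7906249, plus strand: tcctgggctgtcctAgcctcacattt
EIF4G2 at chr11:10802345, minus strand, coding exon 12 of 22: cacccaggatgaaaAtggatagggaccca
ATP5F1B at chr12:56644905, minus strand, coding exon 3 of 10: cagaaggcttggttAgaggccagaaagta

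In ADARcd alone, 23 members were listed with 142 positions. DDX41-ADARcd had 20 members and 85 positions against empty, and 35 members and 146 positions against ADARcd alone. In all 3 lists there were 17 of the 37 listed members (45.9%, exact 95% interval 29.5 to 63.1), beside 763 of 4245 genes (18%). A further 12 members (32.4%, 18 to 49.8) were listed only for DDX41-ADARcd against ADARcd alone, beside 66.1% of all genes, and members were deeper than all genes there. The members were chosen with earlier results of these data known, so neither contrast with all genes is a result about them. The plot of listed positions per host gene shows that positions were uneven over the set: the 11 members with 10 or more held 195 of the 288, led by TPT1 with 32, EIF4G2 with 26 and TCP1 with 23, while PHB2, RABGGTB, NFATC3 and AP1G1 had 1 each.

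**Figure D1:**
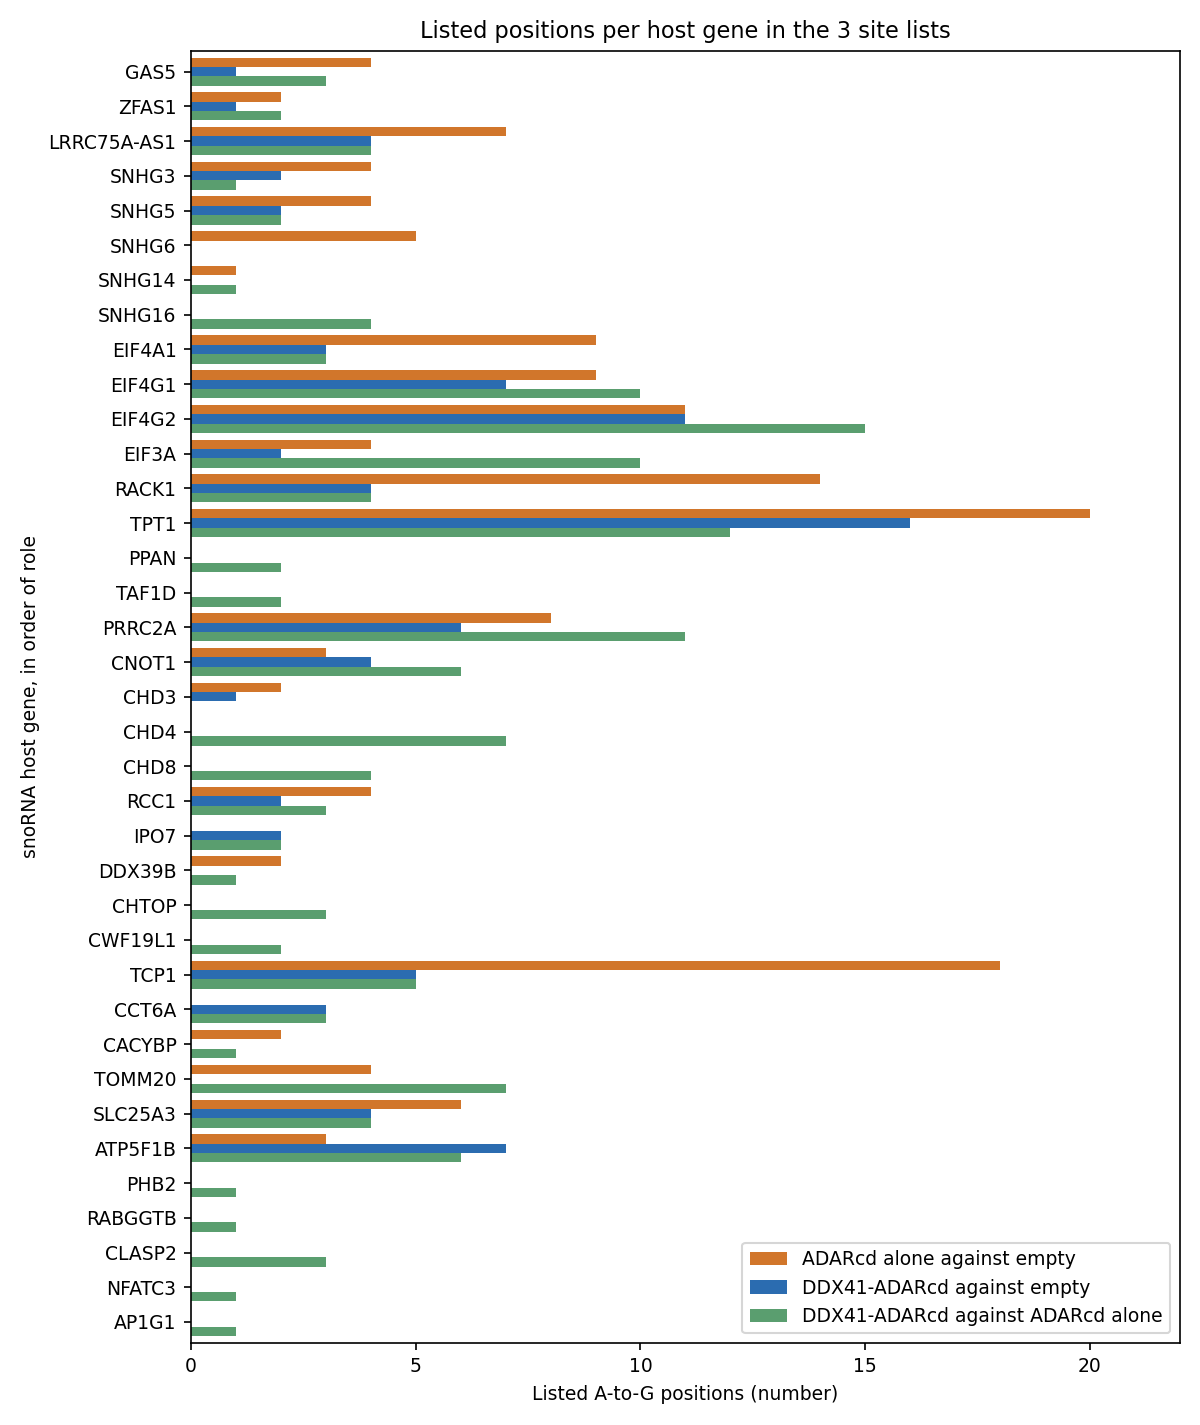
Number of listed A-to-G positions (x axis) for each of the 37 listed host genes (y axis, in order of role), with 1 bar for each of the 3 lists. TPT1 had 20, 16 and 12 positions and TCP1 had 18, 5 and 5 in the order of the legend, and 12 genes have a bar only for DDX41-ADARcd against ADARcd alone.

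The other 13 members were not listed: SNHG1, SNHG7, SNHG8, SNHG12, SNHG15, SNHG17, EIF4A2, LARP4, CFDP1, TNPO2, NAP1L4, PTCD3 and RNF149. No listed position under another gene name fell within their GENCODE 29 spans. Their depth is not given by the lists, so an absence of entries cannot be read as an absence of editing.

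Most member positions rested on a single edited read: 78.9% (71.2 to 85.3) of those of ADARcd alone, 80% (69.9 to 87.9) of those of DDX41-ADARcd against empty and 82.2% (75 to 88) of those against ADARcd alone. Over all genes these shares were 74.8%, 81.5% and 83.9%. The median level of member positions was 0.542%, 0.68% and 1.22% in the 3 lists in the same order, beside 0.434%, 0.515% and 3.7% over all positions, whose median depths in the first library were 286, 220 and 30 reads. At a single edited read the level is set by the depth, and members were deeper than all genes in the last list. In all, 20 positions in 13 genes had 3 or more edited reads in a library, 15 of them in ADARcd alone and 7 in DDX41-ADARcd, with 2 positions in both. By list these were 15 of 142, 4 of 85 and 5 of 146 member positions. Over all genes they were 513 of 6413, 81 of 3516 and 106 of 10407 positions.

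**Figure D2:**
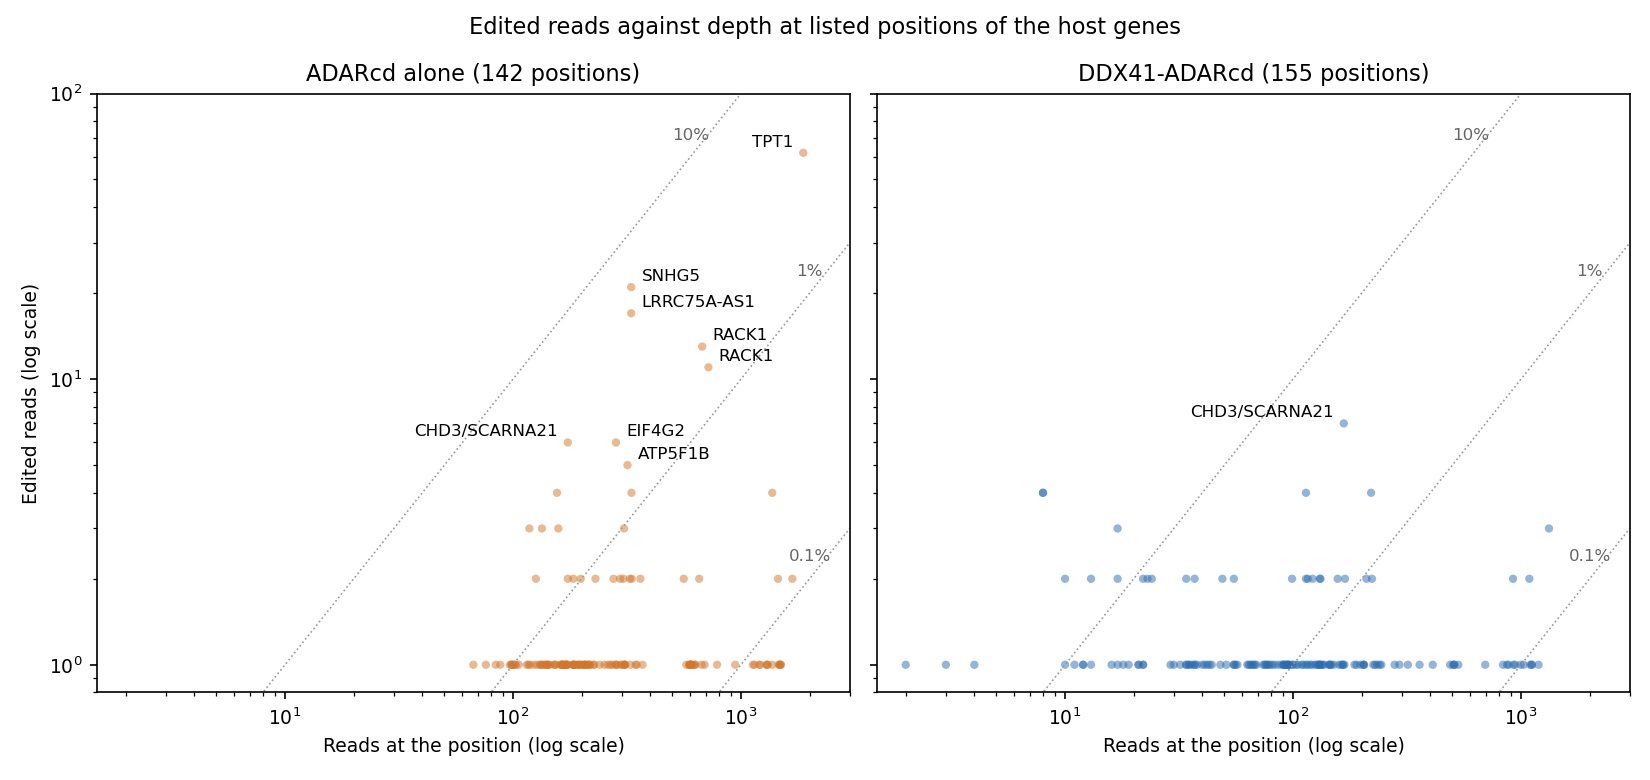
Edited reads (y axis, log scale) against all reads (x axis, log scale) at each listed host gene position, for ADARcd alone (142 positions) and DDX41-ADARcd (155 positions of the 2 lists in which it is first), with dotted lines at levels of 0.1%, 1% and 10%. Most points lie at 1 edited read, TPT1 reaches 62 edited reads in ADARcd alone, and the highest count in DDX41-ADARcd is 7, inside SCARNA21 in CHD3.

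Each position with at least 10 reads in both libraries was compared by a two-sided Fisher's exact test of edited and other reads, adjusted by the Benjamini-Hochberg method over all positions of a comparison. In ADARcd alone against empty, 1 of 142 member positions passed an adjusted p of 0.05, in TPT1, and over all genes 0.203% of 6412 positions were called higher. At 141 of those 142 positions the depth of empty was too low to exclude the measured level, since 0 edited reads there allow a higher one. In DDX41-ADARcd against empty, 0 of 85 member positions passed, 0 had an unadjusted p under 0.05 by the same test, and 0% of 3512 positions were called over all genes, 3 of which had an unadjusted p under 0.05. For DDX41-ADARcd against ADARcd alone the 150 member positions tested include 9 that were listed for both libraries against empty. In that comparison 1 position was called lower in DDX41-ADARcd, again in TPT1, beside 0.282% of 9227 positions over all genes. Positions with 0 edited reads in ADARcd alone cannot be called lower, so the fitting shares are 1 of those 9 member positions and 26 of 400 such positions over all genes (6.5%). No member was called higher, beside 0% over all genes, and 2 member positions had an unadjusted p under 0.05 in that direction.

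**Figure D3:**
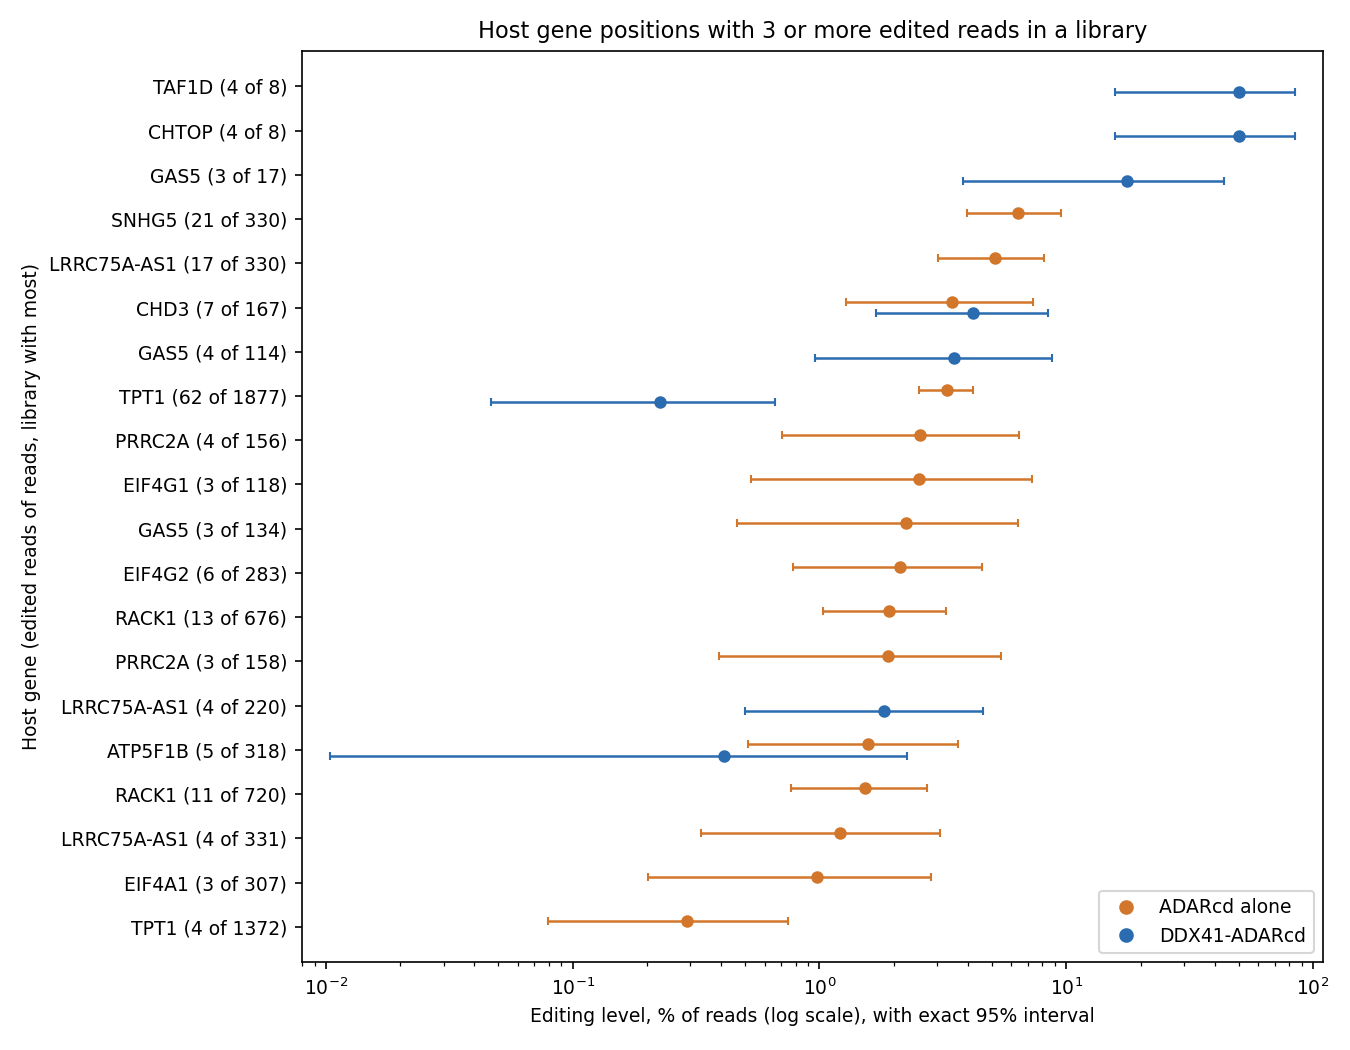
Editing level in percent of reads (x axis, log scale) with exact 95% intervals at the 20 host gene positions that reached 3 edited reads, for ADARcd alone and DDX41-ADARcd, with the larger edited count and its depth in each label. A point is drawn only where the position is listed for that library: TPT1 lay at 3.3% in ADARcd alone and 0.226% in DDX41-ADARcd, and the SCARNA21 position of CHD3 at 3.45% and 4.19%.

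Among non-coding hosts, whose main known product besides the snoRNAs is a spliced RNA with no large open reading frame, 8 of 14 were listed. SNHG5, the host of SNORD50B, had the highest level of any member position of ADARcd alone, at chr6:85677808. There 21 of 330 reads were edited in ADARcd alone (6.36%, 3.98 to 9.56) and 0 of 33 in empty, which allows up to 9.09%. The difference from empty was within counting error (6.36 points, 95% interval -4.29 to 9.53, two-sided Fisher's exact test p = 0.239, Benjamini-Hochberg adjusted p = 1). All 6 listed SNHG5 positions lay within 47 bases of exon 3. The position of DDX41-ADARcd nearest to the best one, 23 bases away, had 1 edited read of 234, and the best one itself was not listed for DDX41-ADARcd, so its level there is not used here.

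LRRC75A-AS1, the host of SNORD49A, SNORD49B and SNORD65, had 11 listed positions, and 4 of them lay within 34 bases of its last exon. ADARcd alone had 17 edited reads of 330 (5.15%, 3.03 to 8.12) at chr17:16441673 and 4 of 331 (1.21%) at the next base, with 0 of 31 reads edited in empty at both. DDX41-ADARcd had 4 edited reads of 220 (1.82%, 0.498 to 4.59) 6 bases upstream, at chr17:16441667, where ADARcd alone had 0 of 332 and empty 0 of 30. That difference of 1.82 points (0.225 to 4.58) had an unadjusted p of 0.0248 and an adjusted p of 0.56 by two-sided Fisher's exact test with Benjamini-Hochberg adjustment, so it was not called. DDX41-ADARcd also had 2 edited reads of 222 at chr17:16441700, against 0 of 306 in ADARcd alone.

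GAS5, a growth-arrest RNA and host of many box C/D snoRNAs, showed a similar arrangement, with 5 of its 7 positions within 50 bases of the genome near its end. DDX41-ADARcd had 4 edited reads of 114 (3.51%, 0.964 to 8.74) at its best position, in the last exon, ADARcd alone had 0 of 157 and empty had 0 of 38. Against ADARcd alone the difference was 3.51 points (0.305 to 8.68), with an unadjusted p of 0.0304 and an adjusted p of 0.56 by two-sided Fisher's exact test with Benjamini-Hochberg adjustment. In ADARcd alone 3 neighbouring positions had 3 of 134, 1 of 128 and 2 of 126 reads edited. At a further position, chr1:173864077, DDX41-ADARcd had 3 edited reads of 17 (17.6%, 3.8 to 43.4) and ADARcd alone 0 of 17. That difference was within counting error by two-sided Fisher's exact test (p = 0.227, Benjamini-Hochberg adjusted p = 0.56). This position was placed in exon 10 of 10 of another transcript. ADARcd alone had 17 reads there, beside 126 at chr1:173864064 in exon 8 of 8. In both GAS5 and LRRC75A-AS1 the libraries thus had edited reads at different bases of the same short stretch, mostly at few edited reads. Positions listed against ADARcd alone have 0 edited reads there by the listing rule. Over all genes, 11.4% of DDX41-ADARcd positions against empty were also listed for ADARcd alone, and 10.6% of member positions. Different bases are thus no trait of these genes.

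The remaining non-coding hosts had weaker entries. SNHG6 had 5 positions, all in ADARcd alone, at 0.324% to 1.01% and with at most 2 edited reads. SNHG16 had 4 positions, all in DDX41-ADARcd against ADARcd alone, at 24 to 38 reads and 2.63% to 8.33%. ZFAS1, the host of SNORD12, SNORD12B and SNORD12C, had 4 positions with 1 edited read each, 1 of them intronic at 1 of 2 reads. SNHG14, which spans the SNORD115 and SNORD116 clusters, had 2 positions with 1 edited read each, and 1 of these, chr15:24978317, lies outside the annotated span of the gene and in a coding exon.

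SNHG3 and RCC1, the gene of a nuclear exchange factor for Ran, overlap and share their snoRNAs, SNORA73A and SNORA73B, so that 5 positions were named for both genes. Inside SNORA73A, ADARcd alone had 1 edited read of 1128 at chr1:28507453 and 1 of 606 at chr1:28507507, where DDX41-ADARcd had 1 of 359. Inside SNORA73B it had 1 edited read of 601 at chr1:28508610, where DDX41-ADARcd had 1 of 410, and 2 of 561 at chr1:28508698. These levels inside the snoRNAs, 0.0887% to 0.357%, rest on 1 or 2 reads each. The remaining position, chr1:28509513 in a non-coding exon, had 2 edited reads of 17 in DDX41-ADARcd (11.8%, 1.46 to 36.4) and 0 of 15 in ADARcd alone, a difference within counting error by two-sided Fisher's exact test (p = 0.486, Benjamini-Hochberg adjusted p = 0.56). The last position of each snoRNA sits in the same stretch of 29 bases, shown for that reason, and how reads that fit both copies were placed is not given in the sources used here.
SNORA73A at chr1:28507507, plus strand: gtctgcgcctgcatAttcctacagcttcc
SNORA73B at chr1:28508698, plus strand: gtctgcgcctgcatAttcctacagcttcc

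Of the translation initiation hosts, 4 of 5 were listed, each in all 3 lists, and none of their 33, 23 and 38 tested positions was called by Fisher's exact test (0 with an unadjusted p under 0.05). EIF4G2, a scaffold related to eIF4G that acts in cap-independent initiation, had 26 positions, of which 15 were listed for DDX41-ADARcd against ADARcd alone, the most of any member. Its best one, chr11:10802345, had 6 edited reads of 283 in ADARcd alone (2.12%, 0.782 to 4.56) and 0 of 22 in empty. The DDX41-ADARcd positions of EIF4G2 lay at 0.505% to 1.52%, with 1 edited read at 14 of 15.

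EIF4G1, the scaffold of the cap-binding complex and host of SNORD66, had 19 positions, all in coding exons. Its best one, chr3:184331732 in exon 30 of 32, had 3 edited reads of 118 in ADARcd alone (2.54%) and 0 of 11 in empty. EIF4A1, the helicase of that complex, had 12 positions, and its best one, chr17:7576650, had 3 of 307 reads edited in ADARcd alone and 0 of 47 in empty. EIF3A, the largest subunit of eIF3 and host of SNORA19, had 14 positions with 1 edited read each, 10 of them in DDX41-ADARcd against ADARcd alone. These genes thus had many positions and few edited reads at each.

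Of the hosts linked to ribosomes and translation, 6 of 7 were listed, and TPT1 held the only called position of the set. TPT1 encodes a translationally controlled protein that binds microtubules and calcium, and it hosts SNORA31. At chr13:45340107, 62 of 1877 reads were edited in ADARcd alone (3.3%, 2.54 to 4.21), 0 of 383 in empty and 3 of 1327 in DDX41-ADARcd (0.226%, 0.0466 to 0.659). The level in ADARcd alone was higher than in empty by 3.3 points (2.08 to 4.21), with an adjusted p of 0.00886 by two-sided Fisher's exact test and Benjamini-Hochberg adjustment. That call was lost under Bonferroni adjustment of the exact test (adjusted p = 0.106) and with the reads of both libraries halved.

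DDX41-ADARcd lay 14.6-fold below ADARcd alone at this TPT1 position, a difference of -3.08 points (-4 to -2.24) with an adjusted p of 1e-08 by two-sided Fisher's exact test and Benjamini-Hochberg adjustment. This call held under Bonferroni adjustment and with reads halved. The size of the fold rests on 3 edited reads of 1327 in DDX41-ADARcd, where 2 reads had another mismatch. In ADARcd alone 2 of 1877 reads had another mismatch there. The median read ratio of DDX41-ADARcd to ADARcd alone over the TPT1 positions was 0.688. The other 31 TPT1 positions had at most 4 edited reads: chr13:45340168, 61 bases from the called one, had 4 of 1372 in ADARcd alone (0.292%) and 0 of 187 in empty. At the 16 TPT1 positions of DDX41-ADARcd against empty, levels ran from 0.0838% to 0.226% at 531 to 1327 reads. Of these positions 13 had 1 edited read, and 22 reads over the 16 had another mismatch, so levels this low are not set apart from base error. The 20 TPT1 positions of ADARcd alone had 13 reads with another mismatch. TPT1 has 14 pseudogenes named after it in GENCODE 29 and EIF4A1 has 13, and how reads of such copies were placed is not given in the sources used here.

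RACK1, a scaffold protein of the small ribosomal subunit and host of SNORD95 and SNORD96A, had 18 positions, all in coding exons. In ADARcd alone, 13 of 676 reads were edited at chr5:181238222 (1.92%, 1.03 to 3.27) and 11 of 720 at chr5:181241604 (1.53%, 0.765 to 2.72), while empty had 0 of 92 and 0 of 84. Neither differed from empty beyond counting error (two-sided Fisher's exact test p = 0.384 and p = 0.617, Benjamini-Hochberg adjusted p = 1 for both). The 4 RACK1 positions of DDX41-ADARcd had 1 edited read each at 489 to 511 reads, and the closest to either of the 2 best ones lay 98 bases away.

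PRRC2A, an RNA-binding protein and host of SNORA38, had 19 positions. In ADARcd alone, 4 of 156 reads were edited at chr6:31625524 (2.56%) and 3 of 158 at chr6:31620817 in the 5′ UTR (1.9%), against 0 of 12 in empty at both. Other mismatches were seen at both PRRC2A positions, in 1 and 2 reads of ADARcd alone. CNOT1, the scaffold of the CCR4-NOT deadenylase, had 9 positions with at most 2 edited reads.

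TAF1D, a subunit of the RNA polymerase I factor SL1 and host of 8 snoRNAs, and PPAN, a ribosome biogenesis factor, were listed only for DDX41-ADARcd against ADARcd alone. At chr11:93735606, in the 3′ UTR of TAF1D, 4 of 8 reads were edited in DDX41-ADARcd (50%, 15.7 to 84.3) and 0 of 10 in ADARcd alone, too few reads for the test. PPAN had 2 edited reads of 13 and 1 of 21 at its pair of positions.

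Of the chromatin remodeller hosts, CHD3, CHD4 and CHD8 were listed and CFDP1 was not. Both CHD3 positions lay inside SCARNA21, a scaRNA in an intron of that gene, and no exon position of CHD3 was listed. At chr17:7906249, 6 of 174 reads were edited in ADARcd alone (3.45%, 1.28 to 7.35), 7 of 167 in DDX41-ADARcd (4.19%, 1.7 to 8.45) and 0 of 11 in empty, which allows up to 27.3%. DDX41-ADARcd and ADARcd alone differed there by 0.743 points (-3.68 to 5.34), within counting error by two-sided Fisher's exact test (p = 0.783, Benjamini-Hochberg adjusted p = 0.871). At chr17:7906174 ADARcd alone had 1 edited read of 185. CHD4, the ATPase of the NuRD complex, had 7 positions and CHD8 had 4, all in DDX41-ADARcd against ADARcd alone with at most 2 edited reads and 10 to 57 reads.

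Of the nuclear transport, export and splicing hosts, 5 of 6 were listed. CHTOP, a factor of mRNA export, had 4 edited reads of 8 in DDX41-ADARcd at its best position (50%, 15.7 to 84.3), in a non-coding exon, and 0 of 14 in ADARcd alone, too few reads for the test. The export helicase DDX39B, the import receptor IPO7 and CWF19L1 had 3, 2 and 2 positions, each with 1 edited read.

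Of the chaperone hosts, TCP1 and CCT6A, subunits of the chaperonin TRiC, and CACYBP were listed. TCP1, the host of SNORA20 and SNORA29, had 18 positions in ADARcd alone, second to TPT1 among members, and each had 1 edited read at 136 to 209 reads. At chr6:159780525, its position listed for both libraries against empty, DDX41-ADARcd had 2 edited reads of 99 (2.02%) and ADARcd alone 1 of 195 (0.513%), a difference within counting error by two-sided Fisher's exact test (p = 0.263, Benjamini-Hochberg adjusted p = 0.56). CCT6A and CACYBP had 3 positions each, with 1 edited read.

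Of the mitochondrial protein hosts, 4 of 5 were listed. ATP5F1B, the beta subunit of ATP synthase and host of SNORD59A, had 5 edited reads of 318 in ADARcd alone at chr12:56644905 (1.57%, 0.512 to 3.63), 1 of 244 in DDX41-ADARcd (0.41%, 0.0104 to 2.26) and 0 of 25 in empty. The difference between DDX41-ADARcd and ADARcd alone was -1.16 points (-3.24 to 0.917), within counting error by two-sided Fisher's exact test (p = 0.241, Benjamini-Hochberg adjusted p = 0.56). SLC25A3, the phosphate carrier, had 10 positions with at most 2 edited reads, and 1 of them, chr12:98599724, lay inside SNORA53 with 1 edited read of 51 in DDX41-ADARcd, 0 of 102 in ADARcd alone and 0 of 41 in empty. TOMM20, a receptor of the outer membrane import complex, had 11 positions, 6 of them in the 3′ UTR, and PHB2 had 1.

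The trafficking, cytoskeleton and signalling hosts were the least covered. RABGGTB, CLASP2, NFATC3 and AP1G1 were listed only for DDX41-ADARcd against ADARcd alone, with 6 positions at a median of 18.5 reads and at most 2 edited reads. The highest, in RABGGTB at chr1:75789161, had 2 edited reads of 10 in DDX41-ADARcd and 0 of 17 in ADARcd alone, a difference within counting error by two-sided Fisher's exact test (p = 0.128, Benjamini-Hochberg adjusted p = 0.56).

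Few positions fell in the snoRNAs themselves. GENCODE 29 places 173 distinct snoRNAs and scaRNAs inside the members, and 4 of them, SCARNA21, SNORA53, SNORA73A and SNORA73B, held a listed position, 7 positions in all. A further 5 positions lay within 100 bases of a snoRNA, in TPT1, LRRC75A-AS1, SLC25A3 and EIF4A1 (2), each at 1 edited read of 216 to 1028. Within 500 bases lay 75 of 288 member positions (26%, 21.1 to 31.5), beside 2.58% of other positions, which follows from how the members were named. These distances use GENCODE 29 alone, which holds no snoRNA inside GAS5, where RefSeq holds 11. The GAS5 positions were thus not counted as near a snoRNA. How well the libraries hold RNAs as short as snoRNAs is not given in the sources used here.

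Counted with an exon of any transcript before an intron, member positions lay mostly in exons. Coding exons held 213 of 288 (74%, 68.5 to 78.9), non-coding exons 42 (14.6%, 10.7 to 19.2), 3′ UTRs 20 (6.94%, 4.29 to 10.5) and 5′ UTRs 6, beside 63.3%, 2.56%, 25.8% and 1.88% of other positions. Introns held 7 (2.43%, 0.983 to 4.94), beside 5.14% of other positions, and 5 of those 7 were inside a snoRNA. The remaining intronic positions were in TOMM20, at 1 of 3 reads, and in ZFAS1. Where any overlapping transcript with an intron was counted, the intronic share of members was 43.8%. By the order of regions used here, even the SNORA73A positions were counted in a non-coding exon. These shares thus do not show how many entries came from excised introns, and the depth over introns is not used here.

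The bases beside the edited A were not used in choosing the members. A G came before the A at 33.2% (27.8 to 39) of 286 member positions, beside 27.2% of other genes' positions and 25.7% of every A in exons of the listed members. A U came before it at 17.1% (13 to 22), beside 15.1% and 19.1%. Among the 20 member positions with 3 or more edited reads, G came before at 2 (10%, 1.23 to 31.7) and U at 6 (30%, 11.9 to 54.3), and G came after at 11 (55%, 31.5 to 76.9). Other genes' positions with as many edited reads had G before at 10.6%, U before at 35.2% and G after at 51.1%. All lay inside the intervals of the members, which are wide at 20 positions. ADAR enzymes are known to disfavour a G before the edited A. The share of G before the A over all member positions was above that of other genes' positions and of the A of member exons. Most of these member positions had 1 edited read, and what set the share was not tested.

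**Figure D4:**
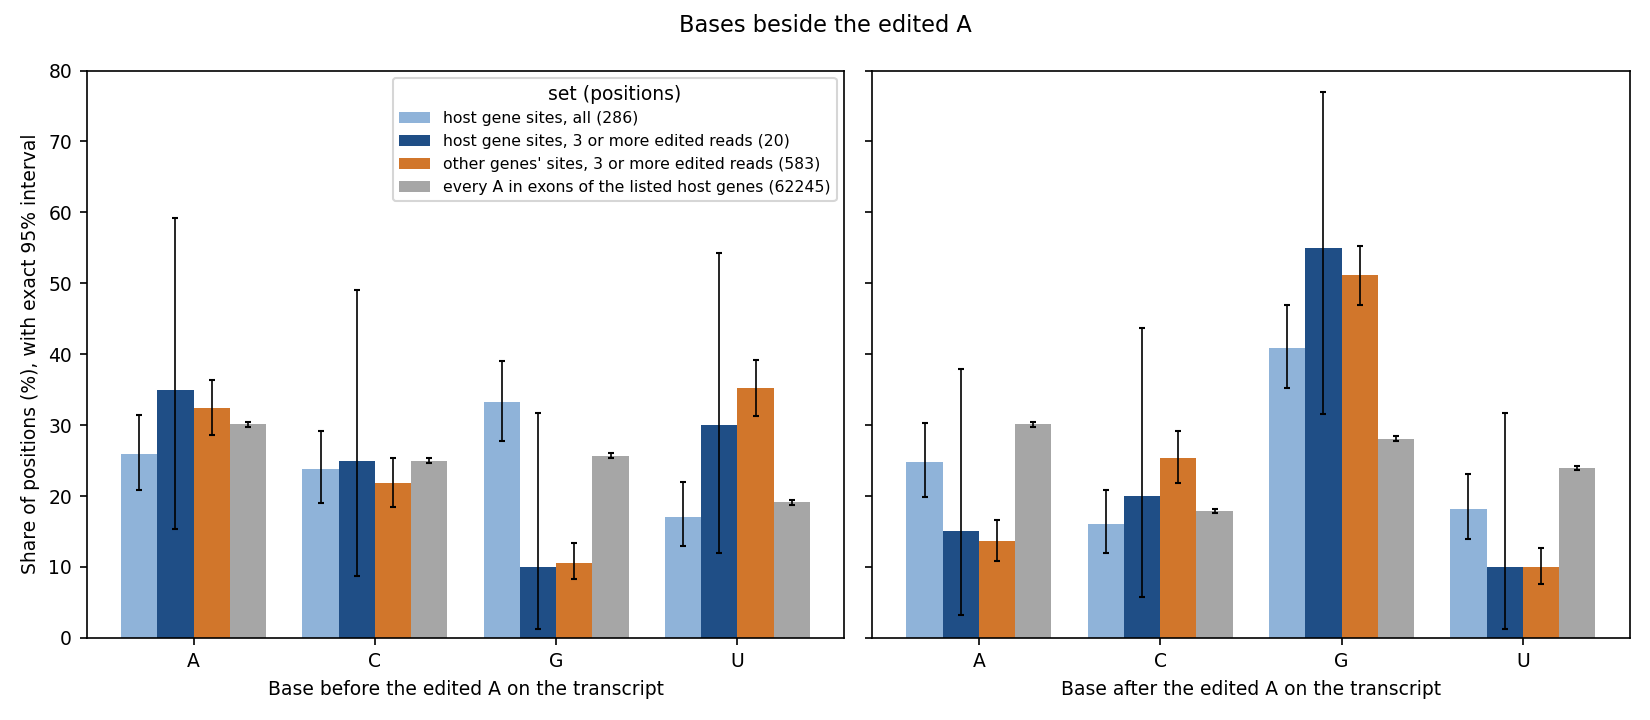
Share of positions in percent, with exact 95% intervals, that have each base before (left) or after (right) the edited A, for all host gene positions, those with 3 or more edited reads, other genes' positions with 3 or more edited reads and every A in exons of the listed host genes. G before the A stands at 33.2% in all host gene positions and at 10% in those with 3 or more edited reads.

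Mismatches other than A-to-G at the same positions give a measure of base error. At member positions of ADARcd alone 0.0524% (0.0353 to 0.0747) of reads had another mismatch and 0.536% were edited. For DDX41-ADARcd these shares were 0.143% (0.102 to 0.196) and 0.412% against empty, and 0.228% (0.174 to 0.295) and 0.701% against ADARcd alone. Since each position was listed for having an edited read and none for another mismatch, the pair of shares is not a like comparison. Positions with at least as many other mismatches as edited reads were 16 of 142 (11.3%, 6.58 to 17.7), 18 of 85 (21.2%, 13.1 to 31.4) and 28 of 146 (19.2%, 13.1 to 26.5) in the 3 lists, beside 22.1%, 22.2% and 10.4% of all positions. The member share was thus below that of all positions in ADARcd alone and above it in the last list, where it was led in reads by EIF4G2 at chr11:10807344, with 12 other mismatches and 1 edited read of 91. Median depth in the first library was 216 reads for members and 286 for all positions in the first list. In the last list these depths were 94 and 30 reads, and the part of depth in the shares was not tested.

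Positions listed for both ADARcd alone and DDX41-ADARcd were few. They numbered 9, which is 6.34% (2.94 to 11.7) of the member positions of ADARcd alone and 10.6% (4.96 to 19.2) of those of DDX41-ADARcd, beside 6.27% and 11.4% over all genes. These 9 were 4 in TPT1, 2 in the SNORA73 copies of SNHG3 and RCC1, and 1 each in CHD3, ATP5F1B and TCP1. Of the 15 positions of ADARcd alone with 3 or more edited reads, 12 were not listed for DDX41-ADARcd (80%, 51.9 to 95.7), beside 383 of 513 over all genes (74.7%), and their depth there is not used here.

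Read totals at listed positions are counts without normalization, so their ratio between 2 libraries does not measure the level of a host RNA. The ratio of reads in DDX41-ADARcd to reads in ADARcd alone had a median of 0.704 over 35 members, from 0.41 in ZFAS1 to 1.47 in NFATC3, beside 0.651 over 4036 genes (5th to 95th percentile 0.36 to 1.07). Outside that range were NFATC3, SNHG3 and CWF19L1, each at 1 or 2 positions. With 3 or more positions, 21 members had a median of 0.704, from 0.571 in CHTOP to 0.904 in EIF3A, all within the range of 0.465 to 0.91 over 1165 genes. The ratio of ADARcd alone to empty had a median of 8.3 over 23 members and 7.71 over all genes, at positions listed for an edited read in ADARcd alone. For CHD3, SNHG3 and RCC1 all of these positions lay inside SCARNA21, SNORA73A or SNORA73B, and SNHG3 and RCC1 share theirs.

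**Figure D5:**
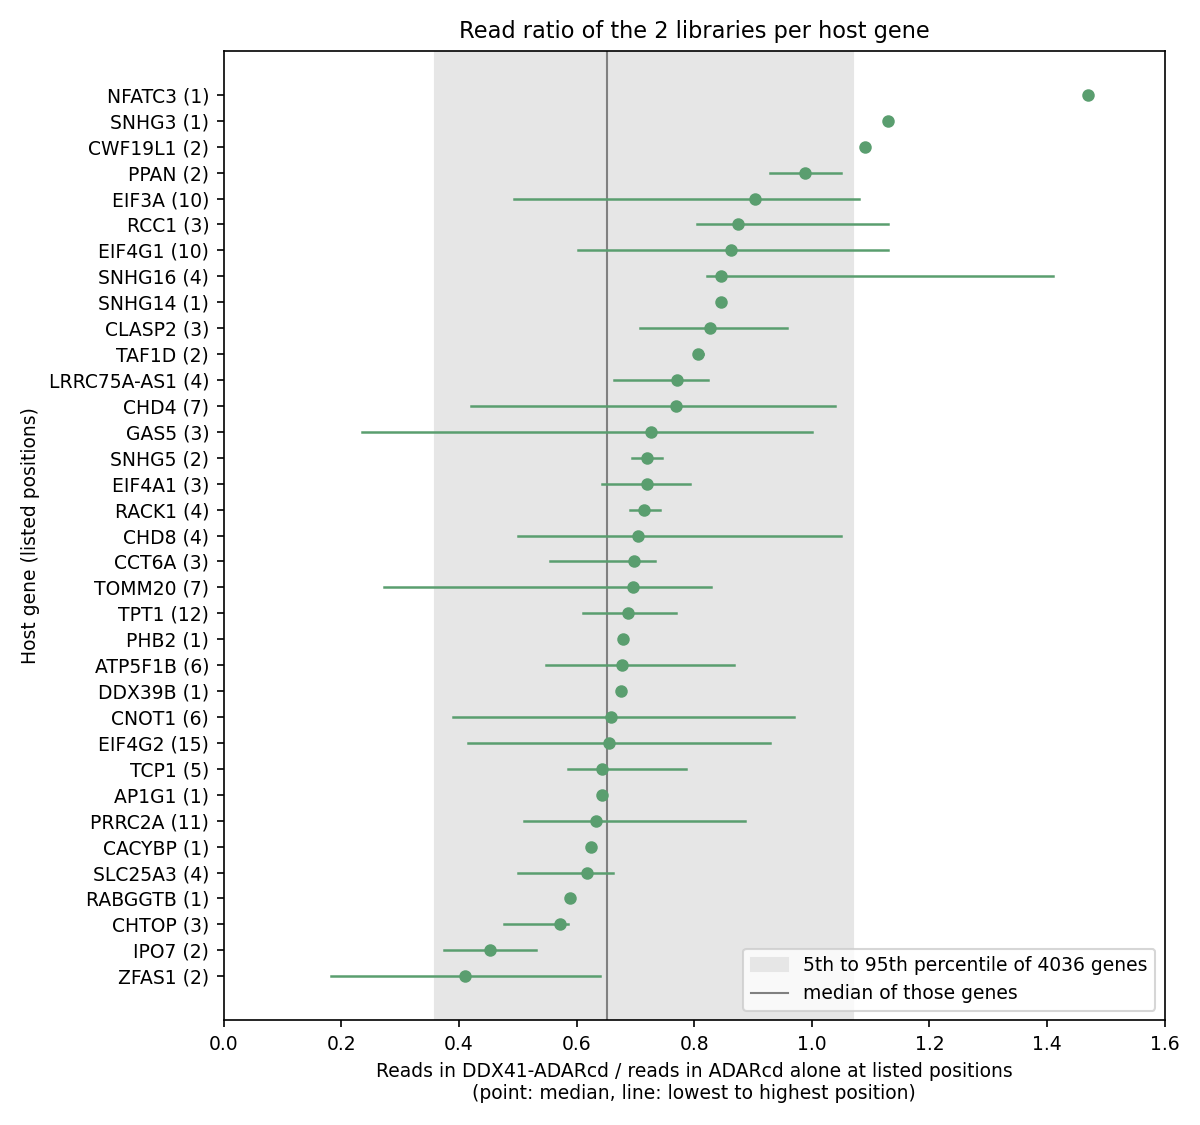
Ratio of reads in DDX41-ADARcd to reads in ADARcd alone (x axis) at the listed positions of 35 host genes (y axis, number of positions in brackets), with points for medians and lines from the lowest to the highest position. The grey band spans 0.36 to 1.07, the 5th to 95th percentile of 4036 genes, and 3 host genes lie outside it.

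Other snoRNA hosts gave values for comparison. All 29 ribosomal protein hosts compared were listed, with 606 positions, at median levels of 0.132%, 0.157% and 0.154% and median depths of 904, 697 and 689 reads in the 3 lists. Of them, 2 positions were called higher in ADARcd alone than in empty, 0 in DDX41-ADARcd against empty (0 with an unadjusted p under 0.05 by Fisher's exact test) and 7 lower in DDX41-ADARcd than in ADARcd alone. In 13 further hosts, such as NCL, EEF2 and HSPA8, 247 positions held 1 call, lower in DDX41-ADARcd than in ADARcd alone. The difference of these counts from those of the members was not tested, and the depths differed.

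The machinery that makes snoRNPs and the decay pathway of spliced host RNAs had few listed positions against empty. The core snoRNP proteins were looked up under 9 symbols, with SNU13 also under its older symbol NHP2L1. Of these, 1 was listed for ADARcd alone (NHP2), 4 for DDX41-ADARcd against empty (FBL, NOP10, NOP58 and SNU13) and 7 against ADARcd alone. Of 12 assembly factors, such as RUVBL1, RUVBL2 and NOLC1, the counts were 2, 1 and 6, and of 10 factors of nonsense-mediated decay, such as UPF1 and SMG1, 0, 0 and 5. None of their positions had more than 2 edited reads, and none was called by Fisher's exact test (0 with an unadjusted p under 0.05). In DDX41-ADARcd against ADARcd alone their median depths were 31, 17 and 14 reads, below the 94 of the host genes and beside 30 over all genes.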

How the data were processed

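All values are counts: the authors deposited, per the file headers, read counts of each base and the total count for every listed position, for a first library and its control, without normalization. The submitters' processing notes give CASAVA 1.4, FastQC 0.11.7, STAR 2.5 and build mm10 without saying what each was used for. No site caller, filter or annotation is named (not given in the sources used here). Headers name no library, so each list's title was read as first library against control. Where a library's total at a position stood in 2 lists it was equal, at 402 of 402 positions for empty and 3114 of 3114 for DDX41-ADARcd. Positions were read as human GRCh38, since 287 of 288 member positions lay inside the named gene on its strand and all 286 on a transcript had A there.

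Repeated entries of a position were joined (134, 62 and 184 in the order of the report), and some positions also carry the name of an overlapping gene, such as SENP3-EIF4A1 for EIF4A1. Fisher's exact tests (two-sided, 10 or more reads per library, Benjamini-Hochberg adjustment over the whole comparison, threshold 0.05) were tested on simulated data. Differences of levels have Newcombe 95% intervals. Regions follow GENCODE 29, taking coding exons first, then UTRs (3′ before 5′), non-coding exons and introns. Python 3.11.15, numpy 2.4.6, scipy 1.17.1, statsmodels 0.14.6 and matplotlib 3.10.9 were used.

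Named positions were those called, those with 3 or more edited reads, and those inside or within 100 bases of a snoRNA, and the 6 members with most positions in each list were also named. Sequences cover 14 bases on each side, and those of some positions are not reported here. The members and gene lists were chosen with earlier results of these data known. Alternatives were 20 reads in place of 10, 2 or more edited reads, Bonferroni adjustment, halved reads, older gene symbols, and other definitions of intron and of distance to a snoRNA. RefSeq snoRNAs, the marker check and the count of pseudogenes were added after seeing the data. The lists give depth per position only, so no total depth per library was used.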

Additional observations from a re-analysis of the deposited data

How the results depend on the processing

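The TPT1 call in ADARcd alone against empty was 1 of 142 as reported and 0 under Bonferroni adjustment and 0 with reads halved, while the lower TPT1 call in DDX41-ADARcd against ADARcd alone remained 1 under every alternative run. With 2 or more edited reads required, member positions numbered 30, 17 and 26 in place of 142, 85 and 146, and median levels were 1.12%, 1.53% and 3.57% in place of 0.542%, 0.68% and 1.22%, since the filter removes single-read positions. With 20 reads in each library, 52 positions remained for DDX41-ADARcd against empty, and the medians of the lists against empty were 0.453% and 0.413%. The intronic share of 2.43% became 43.8% where any transcript's intron counted. The share near a snoRNA, 26% within 500 bases, was 4.17% within 100 bases, 35.8% within 1000 bases and 40.4% with 2 or more edited reads. It was 29.2% with RefSeq snoRNAs added, an alternative chosen after seeing the data. Older gene symbols added 0 positions. No paired analysis was possible because each group was 1 library. Depth limits the comparisons with empty: at 141 of 142 and 85 of 85 member positions, 0 edited reads in empty allow a level above the one measured in the first library.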
